A study of Mus musculus with 10 samples.

Results

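The genes of the cytosolic ribosomal proteins were compared between splenic monocytes of leukaemic mice and of control mice. Members were the genes whose symbol in the annotation of the Illumina mouse array is Rpl or Rps followed by a number, together with Rplp0, Rplp1, Rplp2 and Rpsa. The rule left out 33 pseudogene symbols and 6 symbols of the Rps6k kinases, and it found 61 genes among 21946 named genes, 36 of the large and 25 of the small ribosomal subunit. The TCL1-AT group held 5 samples from C57BL/6 mice aged 3 months, whose spleens were taken 6 weeks after transplantation of murine chronic lymphocytic leukaemia (CLL) cells from Eµ-TCL1 mice, a strain in which an immunoglobulin enhancer drives the TCL1 oncogene in B cells. The WT group held 5 samples from C57BL/6 mice of the same age with no intervention. The WT samples are labelled as pools, with the number of mice in a pool not stated, and the labels do not say how many mice stand behind a TCL1-AT sample, so p-values measure the spread between these samples only. In both groups the cells had been sorted as lineage-negative and CD11b-positive, with intermediate F4/80, low to intermediate CD11c and low MHC class II, and 150 ng of total RNA was amplified per array.

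A ribosome consists of a small subunit, which reads the mRNA, and a large subunit, which joins amino acids and holds the exit tunnel for the new chain. Each protein is needed once per ribosome (the stalk proteins P1 and P2 more often), so cells make them in matched amounts. In mammals their mRNAs begin with a run of pyrimidines, the 5′ terminal oligopyrimidine (TOP) tract, through which mTORC1 and LARP1 control their translation and stability, and the mRNAs of several translation factors share this tract.

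Pyrimidine runs were common around the annotated starts of the members. RefSeq promoters of build GRCm38.p6, 300 bases each, were matched to 50 of the 61 genes. In the 50 bases on either side of the start, 43 of these 50 genes (86%) had an unbroken run of at least 8 C or T on the gene's strand, against 39.3% of 27025 genes in the table. The letters CCGGAAG, the core of ETS and GABP sites, were found on either strand of 23 of the 50 promoters (46%) and of 9.93% of all promoters, and the reverse complement of this motif can overlap a pyrimidine run. The E-box CACGTG, a Myc motif, was found in 6 of the 50 (12%) and in 8.09% of all. The next windows, 30 bases each and written 5′ to 3′ on the gene's strand with the pyrimidine run in capitals, are shown because they carry the shared sequence of the family in 4 genes that fell in TCL1-AT and in 3 genes that did not pass the test.
Rpl7a, fell, chr2:26910788-26910817, plus strand: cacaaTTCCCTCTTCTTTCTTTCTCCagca
Rpl13a, fell, chr7:45128722-45128751, minus strand: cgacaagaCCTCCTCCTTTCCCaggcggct
Rplp2, fell, chr7:141447636-141447665, plus strand: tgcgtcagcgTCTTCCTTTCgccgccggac
Rpl4, fell, chr9:64173405-64173434, plus strand: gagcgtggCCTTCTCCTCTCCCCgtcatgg
Rps9, not called, chr7:3704024-3704053, plus strand: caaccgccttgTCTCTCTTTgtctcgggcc
Rpl35, not called, chr2:39005115-39005144, minus strand: gccccgCCCTTTCCTCTTTCTCTCgaacca
Rpl27a, not called, chr7:109519186-109519215, plus strand: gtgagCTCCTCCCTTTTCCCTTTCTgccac
The run was 21 bases long in Rpl7a, where it began 14 bases before the annotated start, and 10 bases long in Rplp2, where it began 5 bases before it. Other runs lay further off, beginning at base 27 after the start in Rpl4 and at base 40 in Rpl12. In Rpl26 the counted run reached the edge of the search, 50 bases before the start, and C bases continued beyond that edge. A run counted here therefore need not be the TOP tract of the mRNA. Among the genes with a promoter, 11 of 15 that fell held such a run, and 28 of 31 that were not called did. These matches are descriptions of the letters in the windows, and no binding or translation was measured.

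Of the 61 genes, 56 passed the detection filter (detected at p under 0.05 by 5 or more arrays) and were tested, and 53 of them were detected on all 10 arrays. The probes of Rpl14, Rpl17, Rpl39l, Rps20 and Rps23 were detected on 3 or fewer arrays and were not tested. Ribosomal protein probes were among the brightest on the array, with 19 of the 100 brightest features and 30 genes at a mean normalized log2 signal of 13 or more. A signal depends on its probe as well as on the transcript, so signals do not rank the genes. Many of these genes have near-identical processed pseudogenes in the mouse genome, and how far a probe also reads such copies was not tested.

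Ribosomal protein genes were shifted downwards in monocytes of leukaemic spleens, by small amounts and unevenly. In limma's test, 18 of the 56 genes (32.1%) fell at an adjusted p under 0.05, while 15.4% of all 14859 tested features did. In the other direction, 2 of the 56 genes (3.57%) rose, while 12.3% of all features did. The remaining 36 were not called, with log2 differences, TCL1-AT minus WT, of -0.31 (Rps27l, -0.15 without TCL1-AT 4) to 0.20 (Rps18). The median log2 difference was -0.18 over the 56 genes and 0.02 over all features, and 41 of 56 differences were negative. The groups did not overlap, with all 5 TCL1-AT values below all 5 WT values, for 20 genes (35.7%), against 11.3% of all features. All TCL1-AT values lay above all WT values for 4 genes, against 9.19% of all features. The median raw signal of the arrays also differed between the groups (values with the arrays). With it as a covariate 3 of the 56 genes were called lower, Rpl10a, Rpl36a and Rpl4, all among the 18. In that fit 7.05% of all features were called lower, so the share of called members was no longer above that of all features. The median log2 difference of the 56 genes was -0.17 in that fit, and the 15 genes whose calls were lost stayed negative, from -0.61 (Rplp2) to -0.19 (Rps16), with Rpl7a at -0.49, Rps4x at -0.41 and Rps3 at -0.39.

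**Figure D1:**
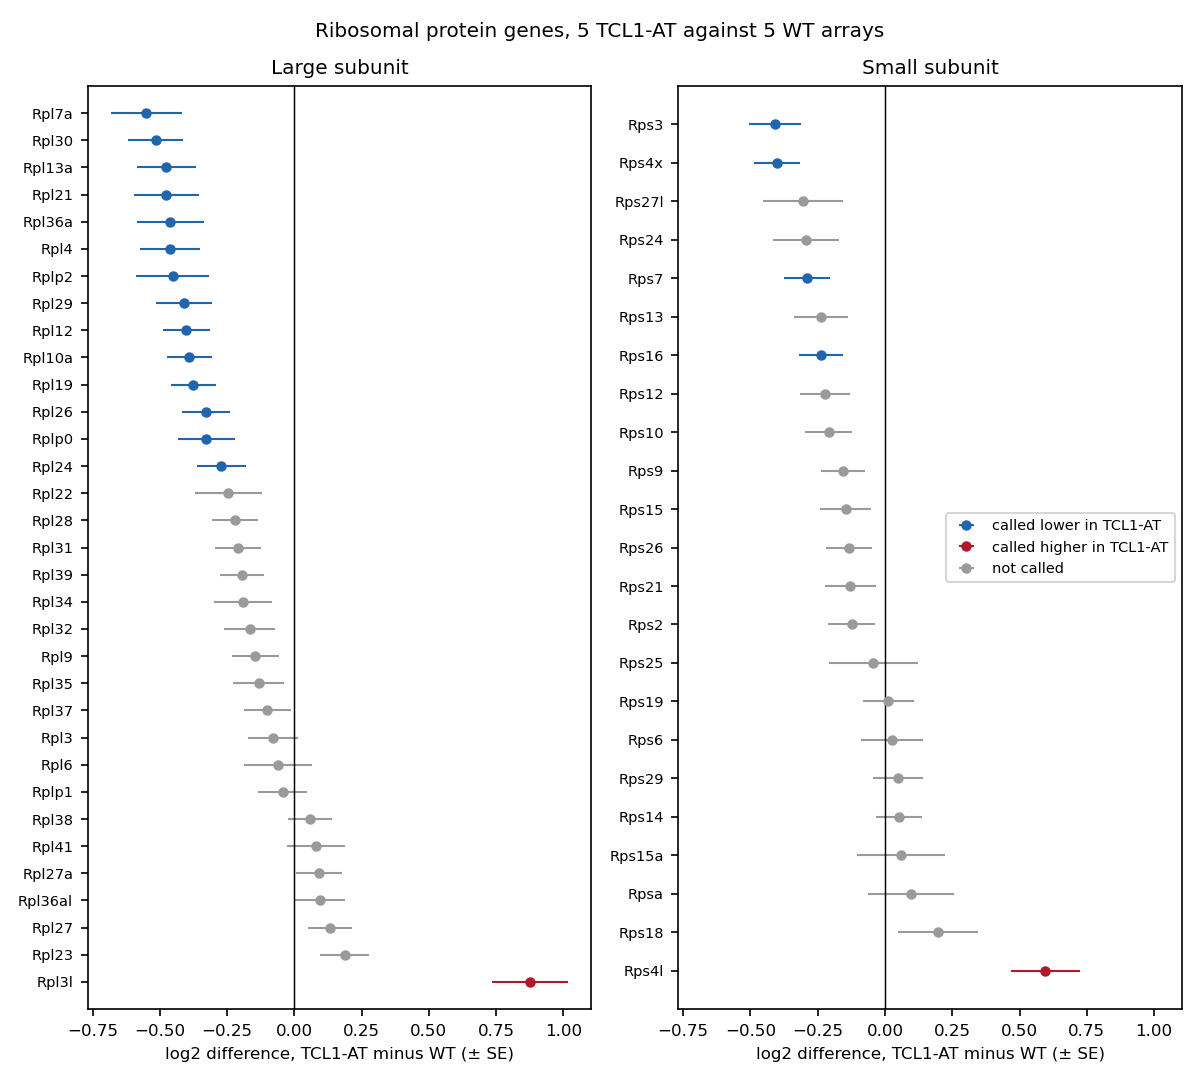
Log2 difference (TCL1-AT minus WT, horizontal axis) of each of the 56 tested ribosomal protein genes with its standard error, by subunit, 5 arrays per group. Blue points fell, red points rose and grey points were not called at an adjusted p under 0.05. The large subunit holds 14 of the 18 falls, and Rpl3l and Rps4l lie apart on the right.

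The large subunit held 14 of the falls. Of its 33 tested genes, 14 fell (42.4%) and 1 rose (3.03%), where 15.4% of all features fell and 12.3% rose. The median log2 difference of the 33 genes was -0.21. Rpl7a, a member of the L7Ae family of RNA-binding proteins, showed the largest fall, with log2 signals of 10.73, 10.64, 10.41, 10.51 and 10.41 for TCL1-AT, against 10.99, 11.45, 11.30, 10.93 and 10.77 for WT. The groups did not overlap, and the log2 difference was -0.55 (SE 0.13, adjusted p = 0.0081), a signal 1.46-fold lower in TCL1-AT. Rpl30, of the same protein family, stood at 9.84, 9.74, 9.96, 9.89 and 9.90 on TCL1-AT arrays and at 10.37, 10.17, 10.59, 10.28 and 10.49 on WT arrays. Every TCL1-AT value was below every WT value, giving a log2 difference of -0.52 (SE 0.10, adjusted p = 0.00207). A second probe of Rpl30 gave -0.37 and was also called lower.

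Rpl13a is a large-subunit protein that, in human monocytic cells, is known to leave the ribosome after interferon gamma to silence inflammatory mRNAs. Its log2 signal was 9.07, 8.96, 9.25, 9.24 and 9.12 in TCL1-AT and 9.59, 9.29, 9.68, 9.66 and 9.79 in WT, giving a log2 difference of -0.48 (SE 0.11, adjusted p = 0.00593). All TCL1-AT arrays were below all WT arrays, the nearest pair being TCL1-AT 3 and WT 2. Rpl4, whose extension lines the exit tunnel, stood at 9.08, 8.99, 8.75, 9.04 and 8.97 in TCL1-AT and 9.32, 9.52, 9.26, 9.73 and 9.32 in WT. Its groups did not overlap and its log2 difference was -0.46 (SE 0.11, adjusted p = 0.00803). The call of Rpl4 was lost with no between-array normalization (-0.55, adjusted p = 0.0699). Rpl29 stood at 11.33, 11.37, 11.55, 11.67 and 11.38 in TCL1-AT and 11.93, 11.78, 11.90, 11.69 and 12.05 in WT, again without overlap, and its log2 difference was -0.41 (SE 0.10, adjusted p = 0.0101). The second probe of Rpl29 gave -0.35 and was called lower.

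Of the genes of the stalks, the mobile arms of the large subunit, 4 fell and Rplp1 did not pass the test. The P stalk of P0, P1 and P2 recruits the elongation factors. Rplp2 stood at 13.19, 13.02, 13.01, 12.95 and 13.18 on TCL1-AT arrays and 13.36, 13.70, 13.23, 13.96 and 13.36 on WT arrays, giving a log2 difference of -0.45 (SE 0.13, adjusted p = 0.0238). The groups did not overlap, but WT 2 and WT 4 stood above the other WT arrays, and the call was lost without TCL1-AT 3 (log2 difference -0.44, adjusted p = 0.0524) or without WT 2 (-0.41, adjusted p = 0.0585). Rplp0 was dim, with 6.88, 6.81, 6.86, 7.01 and 6.71 in TCL1-AT and 7.38, 7.34, 7.01, 7.09 and 7.07 in WT, and a log2 difference of -0.33 (SE 0.10, adjusted p = 0.0331), or -0.20 with no background correction. Its groups did not overlap, although TCL1-AT 4 and WT 3 both round to 7.01, and its call was lost in 6 of the 10 fits that left out 1 array (each of TCL1-AT 1, 2, 3 and 5 and WT 1 and 2). Rplp1, the partner of P2, stood at 14.29, 14.23, 14.18, 14.28 and 14.28 in TCL1-AT and 14.49, 14.35, 14.23, 14.14 and 14.27 in WT. These values overlapped, and its log2 difference of -0.04 did not pass the test (SE 0.09, adjusted p = 0.766). Rpl12, which binds at the base of the P stalk, fell by 0.40 on the log2 scale, with 12.32, 12.22, 12.33, 12.12 and 12.24 in TCL1-AT and 12.61, 12.68, 12.69, 12.53 and 12.75 in WT (adjusted p = 0.00424). Rpl10a, the protein of the L1 stalk, which moves spent tRNA out, fell in the same way, with 13.20, 13.20, 13.07, 13.15 and 13.04 in TCL1-AT and 13.56, 13.57, 13.43, 13.55 and 13.52 in WT. Its log2 difference was -0.39 (SE 0.08, adjusted p = 0.00371), all TCL1-AT values were below all WT values, and it was called in each of the 10 fits that left out 1 array.

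Rpl19, which reaches across to the small subunit, stood at 11.52, 11.46, 11.40, 11.45 and 11.46 in TCL1-AT and 11.82, 11.88, 11.70, 11.86 and 11.90 in WT. The spread within each group was small against the log2 difference of -0.38 (SE 0.08, adjusted p = 0.0048). Rpl26, which sits at the outer end of the exit tunnel, averaged 12.68 ± 0.12 in TCL1-AT against 13.01 ± 0.06 in WT (SD, n = 5 each). Its log2 difference was -0.33 (SE 0.09, adjusted p = 0.0154), and its groups did not overlap. Rpl24, another protein of the bridge between the subunits, differed by -0.27 (SE 0.09, adjusted p = 0.0411). Its groups overlapped through WT 4, and its call held in 1 of the 10 fits without 1 array. Rpl21 was dim, with 5.67, 5.72, 5.63, 6.14 and 5.78 in TCL1-AT and 6.22, 6.21, 6.45, 6.03 and 6.39 in WT. TCL1-AT 4 and WT 4 overlapped, the log2 difference was -0.48 (SE 0.12, adjusted p = 0.00999), or -0.20 with no background correction, and 2 further, dimmer probes were also called lower, with differences of -0.56 and -0.66.

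Fewer genes of the small subunit were called. Of its 23 tested genes, 4 fell (17.4%) and 1 rose (4.35%), with a median log2 difference of -0.13. The share that fell was close to the 15.4% of all features, while 12.3% of all features rose. Whether the subunits differ was not tested. Rps3, which sits at the entry of the mRNA channel, stood at 12.64, 12.56, 12.53, 12.50 and 12.43 in TCL1-AT and 12.80, 13.14, 12.85, 13.04 and 12.88 in WT. The groups did not overlap, the log2 difference was -0.41 (SE 0.10, adjusted p = 0.0065), and a second, dimmer probe gave -0.84 and was called. Rps4x, encoded on the X chromosome, stood at 13.43, 13.32, 13.35, 13.38 and 13.28 in TCL1-AT and 13.71, 13.87, 13.65, 13.80 and 13.75 in WT. Its log2 difference was -0.40 (SE 0.08, adjusted p = 0.00348), with no overlap. Rps7 fell, with 13.32, 13.22, 13.26, 13.25 and 13.14 in TCL1-AT and 13.49, 13.66, 13.49, 13.51 and 13.49 in WT, and a log2 difference of -0.29 (SE 0.08, adjusted p = 0.0214), called in 9 of the 10 fits without 1 array. Rps16 stood at 13.17, 13.24, 13.20, 13.10 and 13.19 in TCL1-AT and 13.31, 13.41, 13.44, 13.49 and 13.44 in WT. The groups did not overlap, but the log2 difference of -0.24 (SE 0.08, adjusted p = 0.0464) was called in only 1 of those 10 fits. With median scaling the differences of Rps7 and Rps16 were -0.47 and -0.42, and both were called. With no between-array normalization Rps7 was called (-0.45, adjusted p = 0.042) and Rps16 was not (-0.40, adjusted p = 0.0641).

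Several small-subunit genes known from disease or signalling stayed uncalled. Rps6, the substrate of the S6 kinases, averaged 12.70 ± 0.23 in TCL1-AT against 12.67 ± 0.10 in WT (SD, n = 5 each), a log2 difference of 0.03 (adjusted p = 0.897). Rps19, the gene most often mutated in human Diamond-Blackfan anaemia, averaged 14.03 ± 0.13 in TCL1-AT and 14.02 ± 0.08 in WT, with a log2 difference of 0.01 (adjusted p = 0.94). Rps29, whose probe was the brightest of the family, stood at 14.35, 14.29, 14.39, 14.39 and 14.29 in TCL1-AT and 14.31, 14.49, 14.31, 14.17 and 14.16 in WT. These values overlapped, and the log2 difference was 0.05 (SE 0.09, adjusted p = 0.735). Rpsa, also known as the laminin receptor, had the dimmest tested probe, with 4.51, 4.13, 4.30, 4.94 and 4.53 in TCL1-AT and 4.38, 4.11, 4.47, 4.20 and 4.78 in WT. It was detected on 5 of the 10 arrays, and its log2 difference of 0.10 was not called (adjusted p = 0.693). Its direction rested on single arrays, with -0.02 without TCL1-AT 4 and 0.19 without WT 5. Under median scaling the differences of Rps6 and Rps19 were -0.11 and -0.07.

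Of the 20 genes with no overlap downwards, 5 did not pass the test. Rpl39, a short protein of the exit tunnel, was one of them, with 13.28, 13.29, 13.32, 13.31 and 13.36 in TCL1-AT and 13.60, 13.51, 13.55, 13.44 and 13.43 in WT, a log2 difference of -0.20 (SE 0.08, adjusted p = 0.091). Rpl39 was called lower in 5 alternative fits, at -0.38 with median scaling (adjusted p = 0.0237), -0.24 with cyclic loess (adjusted p = 0.0426), -0.20 with no background correction (adjusted p = 0.00399), and -0.20 with no detection filter or a stricter one (adjusted p = 0.0123 and 0.048). Rpl39 was not called with no between-array normalization (-0.35, adjusted p = 0.0832) or with the median raw signal as a covariate (adjusted p = 0.231). Nor was it called with the replicate number as a block (adjusted p = 0.189) or with the mean of all tested probes (adjusted p = 0.0828). No fit that left out 1 array called it. The others were Rps12 (-0.22), Rps10 (-0.21), Rpl31 (-0.21) and Rps9 (-0.16), with adjusted p-values of 0.0893, 0.0894, 0.0852 and 0.173. With median scaling Rpl31 and Rps10 were also called, at -0.40 and -0.35 (adjusted p = 0.0273 and 0.0385), and Rps12 and Rps9 were not. Rpl31 and Rps10 were not called with no between-array normalization (adjusted p = 0.0725 and 0.106). With the median raw signal as a covariate they were not called either (adjusted p = 0.536 and 0.525), nor in any fit that left out 1 array. Of 2 dimmer probes of Rpl31, 1 was called lower in the fit over all detected probes (-0.40, adjusted p = 0.00661). The other gave -0.28 and was not called (adjusted p = 0.0867). Second probes of Rps12 (-0.16) and Rps9 (-0.25) were not called. In the opposite direction, Rpl27 and Rpl23 had no overlap and log2 differences of 0.13 and 0.19, which were not called (adjusted p = 0.255 and 0.151). Under median scaling the log2 difference of Rpl27 was -0.05 and that of Rpl23 was 0.08.

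**Figure D2:**
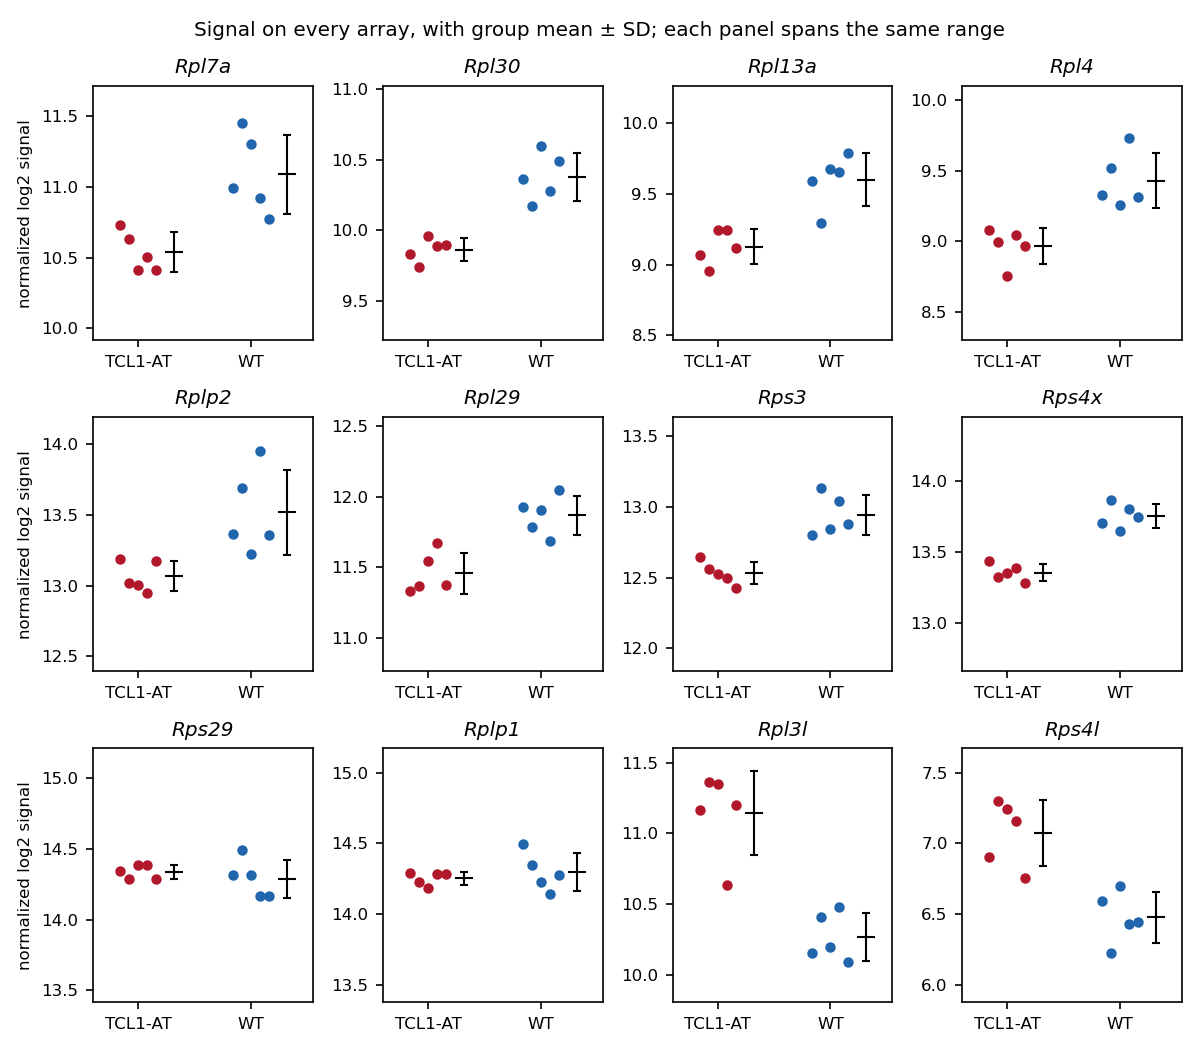
Normalized log2 signal (vertical axis) of 12 ribosomal protein genes on every array, TCL1-AT left and WT right, with the group mean ± SD (n = 5 each). Every panel spans the same range on the log2 scale. The 8 genes from Rpl7a to Rps4x are lower on all TCL1-AT arrays, Rps29 and Rplp1 overlap, and Rpl3l and Rps4l are higher on all TCL1-AT arrays.

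The 2 genes that rose are relatives of other members. Rpl3l encodes a form of Rpl3 known from skeletal muscle and heart. It was read by 1 probe, at a mean log2 signal of 10.70, and whether this probe reads only Rpl3l was not tested. The probe stood at 11.17, 11.36, 11.35, 10.63 and 11.20 on TCL1-AT arrays and 10.15, 10.41, 10.19, 10.48 and 10.09 on WT arrays. TCL1-AT 4 was the lowest of its group and still above every WT array. The log2 difference was 0.88 (SE 0.14, adjusted p = 0.000513), a signal 1.84-fold higher in TCL1-AT, and it lay between 0.82 and 1.00 in the fits that left out 1 array. Rpl3 itself averaged 13.20 ± 0.11 in TCL1-AT and 13.28 ± 0.09 in WT, a log2 difference of -0.08 that was not called (adjusted p = 0.556). It was -0.26 with median scaling and -0.24 with no between-array normalization, again not called. Rps4l, which RefSeq lists as a transcribed pseudogene, stood at 6.91, 7.30, 7.24, 7.16 and 6.76 in TCL1-AT and 6.59, 6.22, 6.70, 6.43 and 6.44 in WT. The groups did not overlap and the log2 difference was 0.60 (SE 0.13, adjusted p = 0.00385), or 0.33 with no background correction, where it was still called, while Rps4x fell. Both rises were also called with the median raw signal as a covariate.

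Other paralog pairs are given side by side. Rpl36a ranged over 10.97 to 11.25 with a median of 11.01 in TCL1-AT, against 11.19 to 11.80 with a median of 11.66 in WT, overlapping through TCL1-AT 1 and WT 3, giving a log2 difference of -0.46 (SE 0.12, adjusted p = 0.0141), or -0.69 with the median raw signal as a covariate. The call of Rpl36a was lost with no between-array normalization (-0.55, adjusted p = 0.0753). Its close copy Rpl36al averaged 13.20 ± 0.08 in TCL1-AT and 13.11 ± 0.12 in WT, a log2 difference of 0.09 (adjusted p = 0.487), which was -0.11 under median scaling. Rps27l, a paralog of Rps27 and, in human cells, a p53 target, stood at 11.89, 11.82, 11.66, 10.99 and 11.74 in TCL1-AT and 11.92, 11.93, 11.84, 12.03 and 11.93 in WT. TCL1-AT 4 stood below the other arrays, and the log2 difference of -0.31 was not called (adjusted p = 0.148). Without TCL1-AT 4 it was -0.15 (adjusted p = 0.259). Differences between paralogs were not tested.

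The differences were also set out by the mean signal of the probe, in steps that hold few genes each. Between mean log2 signals of 4 and 6, 0 of 4 genes were called (median difference 0.08), where 9.44% of all features fell. From 6 to 8, 2 of 3 genes fell and 1 rose (median -0.33), where 21.2% of all features fell. From 8 to 10, 2 of 3 fell (median -0.46), where 20.98% of all features fell, and from 10 to 12, 5 of 8 fell (median -0.39), where 21.3% of all features fell. From 12 to 13, 4 of 8 fell (median -0.26), and from 13 to 14, 5 of 20 (median -0.18), where 23.5% and 13.2% of all features fell. From 14 to 15, 0 of 10 fell (median -0.02), and 0 of all 32 features did. Over all features in these steps the median lay between -0.06 and 0.05. In the brightest step the differences of all features were narrow, with a 10th to 90th percentile of -0.15 to 0.15, against -0.53 to 0.52 from 10 to 12. With median scaling in place of quantile normalization, all features from 13 to 14 had a median of -0.22, the 20 genes there had a median of -0.36, and 10 of them fell.

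Some genes were read by more than 1 tested probe, which gives a second reading of the same gene. In all, 21 dimmer probes of 15 genes were tested. Of these, 12 gave a more negative difference than the brightest probe, 9 were called lower and 0 higher. The share called over all detected probes was not computed, and in the main fit 15.4% of all features were called lower. Rpl27a, a large-subunit protein, was not called by its brightest probe (log2 difference 0.09), while a probe at a mean log2 signal of 9.11 gave -0.86 and was called. Its other 2 tested probes, at 13.05 and 4.74, gave -0.17 and -0.16 and were not called. Rpl23, which binds the anti-association factor eIF6, gave 0.19 by its brightest probe and -0.69 by a probe at 8.67, which was called, while its remaining tested probe, at 13.40, gave -0.01 and was not called. Dimmer probes of Rps13, Rpl38 and Rps19 went the other way, with 0.12, 0.32 and 0.13, and were not called. The brightest probes of these genes gave -0.24, 0.06 and 0.01. The exact position of the probes in the transcripts was not analysed here.

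**Figure D3:**
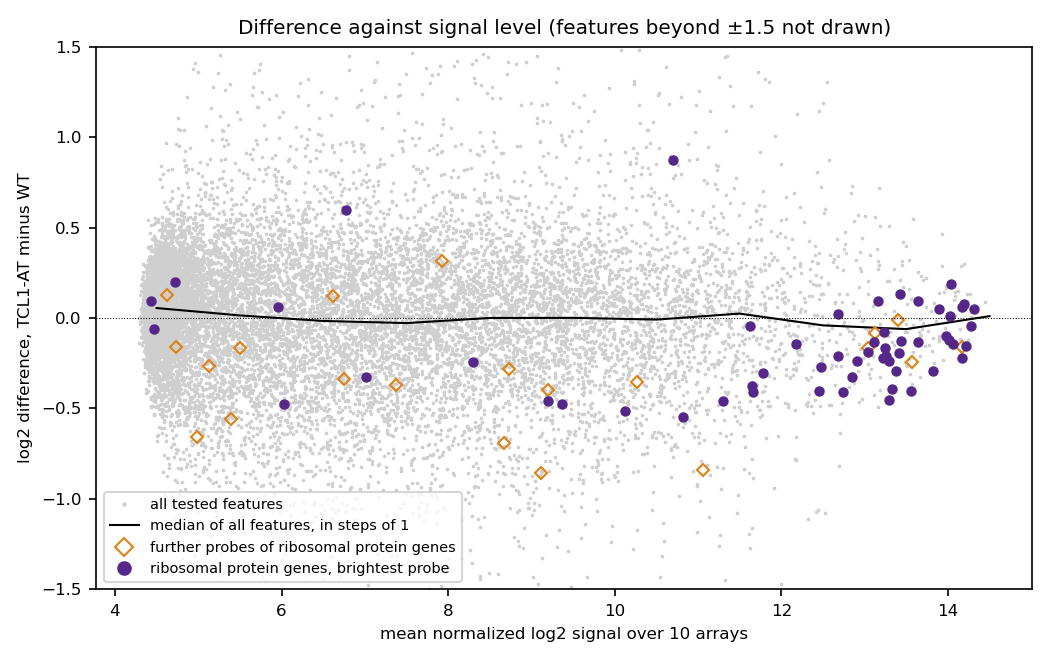
Log2 difference (TCL1-AT minus WT, vertical axis) against mean normalized log2 signal over 10 arrays. Grey points are all tested features, the black line is their median in steps of 1, filled points are the 56 ribosomal protein genes by their brightest probe and open diamonds are their 21 further tested probes. Most members from 8 to 13 lie below the line, and those from 14 to 15 lie around it.

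On every array the mean over the genes followed the groups. TCL1-AT arrays had mean log2 signals over the 56 genes of 11.79 to 11.86, against 11.96 to 11.99 for WT arrays (mean ± SD 11.83 ± 0.03 for TCL1-AT, 11.98 ± 0.01 for WT, n = 5 each). Large-subunit genes averaged 11.80 to 11.83 in TCL1-AT and 11.97 to 12.02 in WT, and small-subunit genes averaged 11.77 to 11.90 in TCL1-AT and 11.94 to 11.95 in WT. As a share of each array's background-corrected signal, without between-array normalization, the 56 probes made up 5.00 to 5.32% in TCL1-AT and 5.10 to 5.86% in WT, and here WT 4, at 5.10%, lay within the TCL1-AT range. In samples of many cells, a smaller number of cells with high levels and a lower level per cell cannot be told apart.

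**Figure D4:**
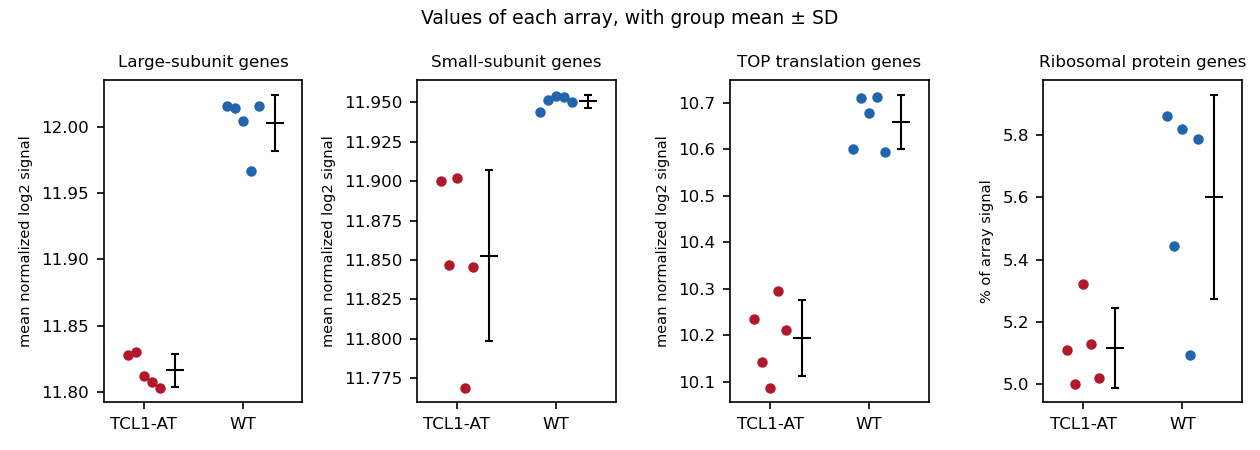
Mean normalized log2 signal of large-subunit genes, small-subunit genes and the other genes with TOP mRNAs, and the share of array signal held by the ribosomal protein probes (%), on every array with group mean ± SD (n = 5 each), TCL1-AT left and WT right. The 3 mean signals do not overlap between the groups, and the share of signal overlaps through WT 4. Vertical axes do not start at 0.

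The raw signal and some markers of other cells also differed between the groups. TCL1-AT arrays had median raw signals of 90.3 to 93.4 intensity units, against 80.4 to 92.1 for WT arrays (mean ± SD 91.8 ± 1.19 for TCL1-AT, 85.0 ± 4.99 for WT, n = 5 each, exact permutation p = 0.0317, 2-sided). The share of probes detected was 44.5% ± 0.875 in TCL1-AT and 44.3% ± 1.01 in WT, which did not pass the test (exact permutation p = 0.667). All 9 monocyte markers passed the filter, of which 3 rose and 2 fell. Of 12 T cell markers, 7 were tested and 4 fell, among them Cd3d (-1.45), and their summed log2 signal was 34.7 to 36.5 in TCL1-AT and 39.3 to 41.8 in WT. Of 8 erythroid markers, 4 were tested and 3 rose, among them Hbb-b1 (2.29), with sums of 30.5 to 34.7 in TCL1-AT and 22.7 to 28.5 in WT. Of 12 B cell markers, 4 were tested and 2 rose, with sums of 23.7 to 26.8 in TCL1-AT and 22.9 to 23.9 in WT, and Cd79b, a chain of the B cell receptor, and Fcrla rose by 0.60 and 0.93 on the log2 scale (adjusted p = 0.00559 and 0.0185), both without overlap. Cd22 was not called (-0.21), and Ms4a1 stood near the floor of detection at 4.36 ± 0.18 in TCL1-AT and 4.38 ± 0.18 in WT. Of 20 cell cycle genes, 16 were tested, 9 fell and 1 rose, with sums of 99.2 to 103.4 in TCL1-AT and 105.2 to 112.9 in WT. Of 4 tested NK cell markers 1 rose, of 10 neutrophil markers 1 fell, and of 6 dendritic cell markers 2 rose and 2 fell. Summed log2 signals of the NK, neutrophil, dendritic, B cell and monocyte markers overlapped between the groups. Of all features, 15.4% fell and 12.3% rose. The part of these measures in the ribosomal protein values was not tested.

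Other genes with TOP mRNAs also fell. Of 18 translation factors and partners whose mRNAs carry a TOP tract, 16 were tested. Of the 16 tested, 10 fell (62.5%) and 0 rose, where 15.4% of all features fell and 12.3% rose. The 16 genes had a median log2 difference of -0.58. Their mean log2 signal was 10.09 to 10.30 in TCL1-AT and 10.59 to 10.71 in WT. Pabpc1, the poly(A)-binding protein, stood at 9.97, 10.15, 9.86, 9.99 and 10.07 in TCL1-AT and 10.88, 11.17, 10.93, 11.55 and 11.19 in WT, giving a log2 difference of -1.13 (SE 0.13, adjusted p = 2.62e-05). Eef1b2, which recharges the elongation factor eEF1A with GTP, stood at 10.63, 10.43, 10.56, 10.43 and 10.53 in TCL1-AT and 11.20, 11.59, 11.37, 11.52 and 11.12 in WT, a log2 difference of -0.85 (SE 0.11, adjusted p = 8.29e-05). Both had no overlap. Tpt1, the translationally controlled tumour protein, and Nap1l1, a histone chaperone, differed by -0.98 and -0.83 (adjusted p = 2.87e-05 and 5.43e-05). Eef1a1, named after its values were seen, averaged 14.26 ± 0.01 in TCL1-AT and 14.19 ± 0.04 in WT, a log2 difference of 0.06 that was not called. With the median raw signal as a covariate, 8 of these 16 genes were called lower, against 7.05% of all features. Of 26 tested ribosomal protein pseudogene symbols, 13 fell (50%) and 0 rose, with a median of -0.31. Among the falls were Rpl21-ps8 (-0.61) and Rps6-ps3 (-0.54).

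Lists of the other translation and ribosome assembly genes had medians between -0.11 and 0.09. Over all features, 15.4% fell and 12.3% rose. Of 16 other initiation factor genes, 1 fell (Eif3a, -0.53) and 1 rose (Eif2s2, 0.68), with a median of -0.06. Of 71 tested mitochondrial ribosomal protein genes, 6 fell and 11 rose (median 0.06), with Mrpl38 at 1.14, Mrpl14 at 0.53 and Mrpl43 at -0.43. Of 27 genes of rRNA processing and subunit assembly, 3 fell and 5 rose (median 0.09), among them Gnl3, a nucleolar GTPase (0.40), Sbds, which helps release eIF6 from new large subunits (0.40), and Nop10, a part of H/ACA particles (-0.38). Of 13 genes of RNA polymerase I and its factors, 1 fell and 2 rose, including Ubtf, which opens ribosomal DNA (0.52). Among 14 regulators of ribosomal protein synthesis, 1 fell, Eif4ebp2 (-0.47), a repressor downstream of mTORC1, and 3 rose, Mycl (0.82), Tsc1 (0.53) and Max (0.60), while Mtor itself averaged 7.32 ± 0.14 in TCL1-AT and 7.32 ± 0.21 in WT. Differences between these lists were not tested.

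**Figure D5:**
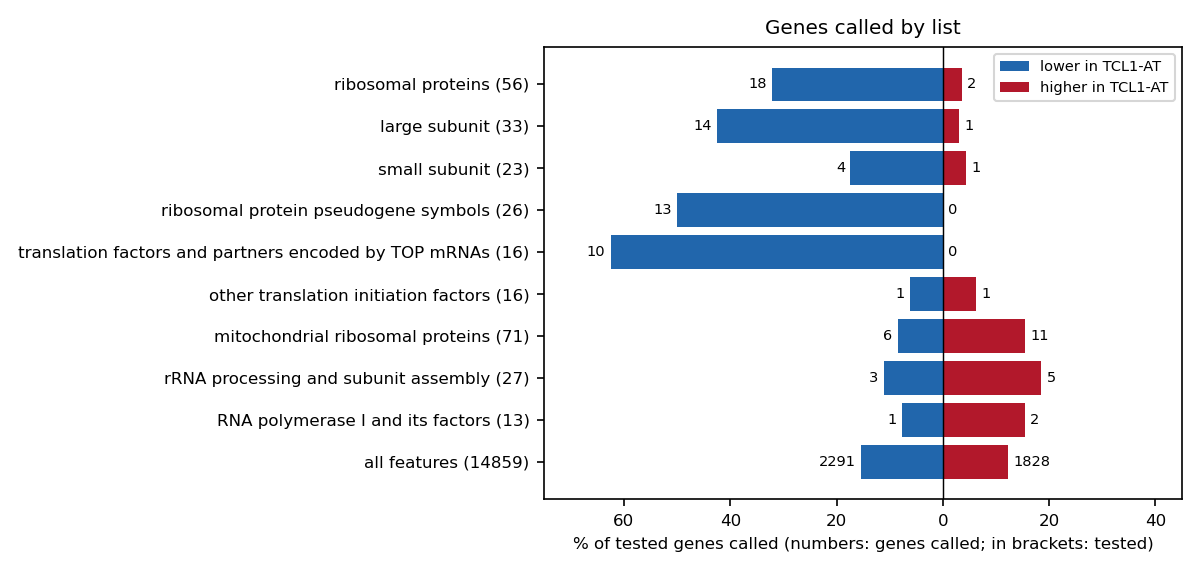
Share of tested genes (%) called lower (blue, left) and higher (red, right) in TCL1-AT at an adjusted p under 0.05, by gene list, with the number of genes tested in brackets and the number called at each bar. Ribosomal proteins, their pseudogene symbols and the other TOP genes hold more falls than rises, whereas mitochondrial ribosomal proteins hold 6 falls and 11 rises.

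A further 3 ribosomal protein genes lay outside the naming rule. Rps3a1, a small-subunit protein, stood at 9.40, 9.61, 9.25, 9.32 and 9.43 in TCL1-AT and 10.20, 10.55, 9.99, 10.30 and 9.96 in WT, with no overlap and a log2 difference of -0.80 (SE 0.12, adjusted p = 0.000365). Rpl22l1, a paralog of Rpl22, stood at 4.76, 5.67, 5.01, 4.88 and 4.38 in TCL1-AT and 5.71, 6.08, 5.80, 6.40 and 5.92 in WT, a log2 difference of -1.04 (SE 0.20, adjusted p = 0.00204). Rpl22 itself differed by -0.24 and was not called (adjusted p = 0.166). Rpl7l1, a paralog of Rpl7, averaged 9.19 ± 0.18 in TCL1-AT and 8.95 ± 0.07 in WT, a log2 difference of 0.24 (adjusted p = 0.0977).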

How the data were processed

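Per the file headers, the deposited table pairs every intensity with a detection p-value, over 46237 probes and 10 arrays. The authors' series matrix holds log2 values, whose scale was found from the values: they differed from the values computed here by at most 0.00043. Intensities were corrected with neqc of limma 3.58.1 in R 4.3.3 (normexp, offset 16, quantile normalization, log2). Kept were probes detected at p under 0.05 by 5 or more arrays. Genes were named from the platform's annotation, updated through a RefSeq table (GRCm38.p6), with 1 probe per gene, the one with the highest mean, and unnamed probes kept as themselves (11506 named genes and 3353 unnamed probes). The groups were compared by lmFit and eBayes, 2-sided, with Benjamini-Hochberg adjustment over all 14859 features. Differences of dim probes are compressed by the offset. Further probes were tested in a fit over 20241 detected probes. The fit was checked on simulated data.

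Members and gene lists were chosen with earlier results of these data known. Named members were those called with a log2 difference of at least 0.5 in size, up to 8 rises and 8 falls, the brightest and dimmest, the P-stalk genes with Rpsa, and paralog pairs; the rest were named to account for the calls. Related lists were named by up to 4 genes of lowest p. Array number limits the precision. Slide and scan time were not used here. Alternatives in background correction, scaling, filter, probe and replicate choice are given at the end.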

Additional observations from a re-analysis of the deposited data

Results flagged for a closer look

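Groups of 5 arrays were searched for a single array apart from the others (Dixon's criterion, critical value 0.71). Of 128 groups, 10 held one, where chance gives about 1 in 20 groups. In TCL1-AT, array 4 accounted for all 5 cases: it was the lowest for Rps27l (10.994, others 11.661 to 11.894), Rps24 (13.337, others 13.687 to 13.829), Rps10 (12.457, others 12.595 to 12.618), Rpl34 (12.609, others 12.975 to 13.101) and Rpl3l (10.632, others 11.167 to 11.36). Without TCL1-AT 4, 17 genes were called lower and 2 higher. In WT, Rps7 was highest on WT 2 (13.663, others 13.486 to 13.507), Rpl24 lowest on WT 4 (12.396, others 12.631 to 12.725) and Rps18 lowest on WT 5 (4.241, others 4.673 to 4.778). WT 4 also had the lowest WT mean over the 56 genes (11.9612, others 11.9836 to 11.9887) and over the large-subunit genes (11.9664, others 12.004 to 12.0155), both above every TCL1-AT array.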

How the results depend on the processing

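The count of 18 genes called lower became 3 of 56 with the median raw signal as a covariate, where 7.05% of all features were called lower. The median log2 difference was -0.165 in that fit. In the other settings 13 to 25 genes were called lower. The 2 genes called higher became 4 with no background correction and 1 among genes at a mean signal of 8 or more (chosen after seeing the data). The median log2 difference of -0.178 was -0.324 with median scaling and -0.305 with no between-array normalization, under which the median of all features was -0.009 and 0.002. Median scaling made 49 of 56 differences negative, cyclic loess 40. With 1 array left out at a time, 14 to 17 genes were called lower and 2 higher in each fit, and the median was -0.200 to -0.161. With the replicate number as a block, 13 genes were called lower, all among the 18, and 2 higher. Deviations of same-numbered arrays correlated at -0.174 to 0.201, over 0.1 in 1 of 5 pairs, and 1 of 5 arrays correlated best with its own number. These correlations showed no pairing by number, but 5 pairs are too few to settle it. Adding Rps3a1 or using the dimmest probe of each gene, both chosen after seeing the data, gave 19 genes called lower each. The number of arrays and the narrow range of the brightest probes limit what can be called.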
